A study of Mus musculus with 18 samples.

Results

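Cortex libraries from mice given urban particulate matter (UPM), a city dust rich in metals and combustion products, for 8 to 20 weeks were compared with cortex libraries from mice given UPM for 3 to 7 days. The 7 libraries were chosen by tissue and exposure time from 18 in the series: 4 on the later side (8, 12, 16 and 20 weeks) and 3 on the earlier side (3, 5 and 7 days). The 3-week cortex library was left out of the comparison and is shown beside it, as is the cortex library of the control mice. All mice were male C57BL/6 animals, aged 7 weeks when dosing began, and dosing was through the nose. Mice of the later side were dosed 2 times per week, those of the earlier side daily, those of 3 weeks also 2 times per week, and control mice received only the vehicle, phosphate-buffered saline. RNA of all mice in an exposure group was pooled before the library was made, so each time is 1 library and the spread between mice is not seen. Exposure time goes together with age, dosing rhythm and total dose, and the time at which the control mice were sampled is not given in the sources used here.

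The cortex holds excitatory and inhibitory neurons, astrocytes, oligodendrocytes, microglia and vessels, and a bulk library mixes their RNA. Particles that reach the nose can act on the brain through the olfactory route, the blood or inflammatory signals, and known responses include the aryl hydrocarbon receptor program, antioxidant genes under NRF2, metallothioneins and glial activation. Long non-coding RNAs such as Neat1 and Malat1 stay in the nucleus, whereas messenger RNAs of ribosomal and mitochondrial proteins are short, abundant and cytoplasmic. The protocol primes on stretches of A and reads the 3′ ends, so a count stands for an RNA molecule with such a stretch and does not scale with its length.

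One fact of the files bears on every result below. The column headers of the deposited tables come in 2 styles. All 4 libraries of 8 to 20 weeks and the control carry a number first, and all 3 libraries of 3 to 7 days and the 3-week library carry letters first. The sides therefore differ in library set as well as in time, and set and time cannot be told apart in this comparison. Total counts were 7.31 to 8.65 M at 8 to 20 weeks and 8.20 to 8.97 M at 3 to 7 days. Rn45s, the ribosomal RNA precursor, took 7.75% to 12.9% of counts at 8 to 20 weeks, 14.9% to 16.3% at 3 to 7 days, 18.6% at 3 weeks and 9.07% in the control. Each of the 9 pairs of libraries within a side differed by more than sampling noise (chi-squared over degrees of freedom of at least 4.82, where noise alone gives about 1). Because libraries of different times stand in for replicates, p-values measure the spread between these pooled libraries only.

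The cortex label held on its markers. Slc17a7, the vesicular glutamate transporter of cortical excitatory neurons, averaged 360 ± 14.5 CPM (read counts scaled to a common library size) at 8 to 20 weeks and 263 ± 42.2 CPM at 3 to 7 days (SD, n = 4 and 3). Tbr1, a deep-layer transcription factor, averaged 137 ± 8.39 CPM at 8 to 20 weeks and 97.5 ± 15.1 CPM at 3 to 7 days. Markers of neighbouring tissue were present and uneven. In the list of striatal genes Gpr6 was at 0 in all 7 libraries. Adora2a, a striatal receptor gene, had 37.8, 36.1, 25.7 and 4.38 CPM at 8, 12, 16 and 20 weeks, against 1.55, 40.4 and 1.42 CPM at 3, 5 and 7 days. Ttr, the defining choroid plexus gene, had 24.9, 162, 28.5 and 33.0 CPM at 8, 12, 16 and 20 weeks, against 4061, 8.45 and 496 CPM at 3, 5 and 7 days. The striatal signal was thus low at 20 weeks, 3 days and 7 days, and the choroid plexus signal was high at 3 and 7 days.

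Small RNAs held the lowest pair of log2 differences, Snora81 and Snord49b, among the 12 largest falls, which also include Bc1 and Snord89. The 4 are shown here because their sequences can be read whole. Each is written 5′ to 3′ from the GENCODE M21 transcript on GRCm38, the assembly of mm10, and the capitals mark its longest run of A, the feature to which an oligo-dT primer can pair.
Snora81: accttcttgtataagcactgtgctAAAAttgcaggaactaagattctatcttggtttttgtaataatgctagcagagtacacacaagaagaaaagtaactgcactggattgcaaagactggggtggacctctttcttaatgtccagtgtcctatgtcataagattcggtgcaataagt
Snord49b: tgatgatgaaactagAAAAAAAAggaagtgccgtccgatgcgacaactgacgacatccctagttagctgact
Snord89: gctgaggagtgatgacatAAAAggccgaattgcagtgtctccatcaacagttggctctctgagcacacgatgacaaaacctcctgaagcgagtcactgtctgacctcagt
Bc1: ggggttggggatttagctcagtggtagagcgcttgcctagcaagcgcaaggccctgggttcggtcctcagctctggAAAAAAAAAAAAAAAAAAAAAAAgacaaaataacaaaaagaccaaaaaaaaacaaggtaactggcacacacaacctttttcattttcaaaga

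Snora81 belongs to the snoRNAs that guide pseudouridylation of ribosomal RNA, and Snord49b and Snord89 to those that guide its 2′-O-methylation. Bc1 is the neuronal RNA of rodents that represses translation in dendrites. Snora81 is 178 bases long and lies at chr16:23110756-23110933 on the plus strand, inside the gene of the translation factor Eif4a2. Its longest A run has 4 bases. Snord49b has 72 bases at chr11:62603079-62603150, plus strand, within 2410006H16Rik, and Snord89 has 110 bases at chr1:39548745-39548854, minus strand, within Gm15832. The longest A run of Snord49b has 8 bases, which 14 of 1507 annotated snoRNA transcripts (0.929%) reach, and that of Snord89 has 4. On the strand of the RNA, TGATGA and CTGA, the C and D boxes of this class, start at bases 1 and 67 in Snord49b and at bases 10 and 100 in Snord89. Both motifs occur in 74 of 98 annotated Snord transcripts (75.5%), and they do not overlap in these RNAs. Bc1 has 168 bases at chr7:144914470-144914637, plus strand, overlaps no other annotated gene, and holds an A run of 23 bases. Snora81, Snord49b and Snord89 share bases with their host genes, so how reads were split between guest and host is uncertain.

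Snora81 had 0.556, 1.79, 0.789 and 0.129 CPM at 8, 12, 16 and 20 weeks, against 128, 137 and 106 CPM at 3, 5 and 7 days. All later libraries were far below all earlier ones. The 3-week library had 238 CPM and the control 0.255 CPM, so the exposed 3-week library lay with 3 to 7 days and the unexposed control with 8 to 20 weeks. Its log2 difference was -7.19 (SE 0.30, adjusted p = 8.13e-09, edgeR quasi-likelihood test with Benjamini-Hochberg adjustment, as for each adjusted p in what follows), from 1 to 15 counts per library at 8 to 20 weeks. Snord49b had 1.81, 2.03, 0.902 and 0.515 CPM at 8, 12, 16 and 20 weeks, against 29.7, 33.1 and 29.9 CPM at 3, 5 and 7 days, with 24.2 CPM at 3 weeks and 1.15 CPM in the control (log2 difference -4.56, SE 0.29, edgeR adjusted p = 5.43e-07). Snord89 had 31.0, 19.5, 18.1 and 9.28 CPM at 8 to 20 weeks and 109, 132 and 72.4 CPM at 3 to 7 days, with 173 CPM at 3 weeks and 13.5 CPM in the control (-2.44 on the log2 scale, SE 0.29, edgeR adjusted p = 0.00022). Bc1 had 20.0, 20.2, 16.2 and 22.7 CPM at 8 to 20 weeks and 121, 149 and 114 CPM at 3 to 7 days, with 114 CPM at 3 weeks and 8.91 CPM in the control (-2.71 on the log2 scale, SE 0.14, edgeR adjusted p = 7.99e-08). The largest falls were taken only from genes whose sides did not overlap, so that separation is no result. For each of these RNAs the 3-week value was near or beyond those of 3 to 7 days.

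Of 127 small nuclear and nucleolar RNA genes in the files, 11 had enough counts to be tested, and 9 of these fell. The filter keeps a gene that is high on 1 side only, so the 11 were partly kept for being high at 3 to 7 days and their count is no support for a general fall. Across all genes tested, 11.8% fell and 10.9% rose. By annotation, 9 tested genes were small nucleolar or Cajal body RNAs. Among them 7 fell and 1, which is not in this list, rose. Snora35, named here because it had no count in any library of 8 to 20 weeks, had 4.89, 1.98 and 1.67 CPM at 3, 5 and 7 days. Set against a floor of 3 counts over the 4 later libraries, it was at least 30.0-fold lower at 8 to 20 weeks. The median log2 difference of the 11 was -3.35, both as fitted and with Snora35 at its bound. Rn45s, counted in this list, had a log2 difference of -0.73 (edgeR adjusted p = 0.0056).

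Several long non-coding RNAs of the nucleus rose. Meg3, the maternally expressed RNA of the Dlk1-Dio3 locus (chr12:109541001-109571726, plus strand), had 11246, 6558, 10118 and 10760 CPM at 8, 12, 16 and 20 weeks, against 2569, 1329 and 2483 CPM at 3, 5 and 7 days. The 3-week library had 1099 CPM and the control 13214 CPM. Every library of 8 to 20 weeks was above every one of 3 to 7 days (log2 difference 2.18, SE 0.23, edgeR adjusted p = 0.000118). Miat, a neuronal nuclear RNA (chr5:112213228-112229395, minus strand), had 139, 84.3, 141 and 166 CPM at 8 to 20 weeks and 33.2, 18.5 and 22.9 CPM at 3 to 7 days, with 16.0 CPM at 3 weeks and 185 CPM in the control (2.40 on the log2 scale, SE 0.24). Neat1, the scaffold of paraspeckles (chr19:5824708-5845478, minus strand), had 123, 163, 223 and 178 CPM at 8 to 20 weeks and 31.6, 28.9 and 41.2 CPM at 3 to 7 days, with 31.7 CPM at 3 weeks and 151 CPM in the control (2.33, SE 0.19). Snhg11, a host gene of snoRNAs (chr2:158375638-158386145, plus strand), had 2398, 1575, 2385 and 2242 CPM at 8 to 20 weeks and 603, 410 and 550 CPM at 3 to 7 days, with 316 CPM at 3 weeks and 3146 CPM in the control (2.04, SE 0.17). GENCODE M21 lists Snhg11 as protein-coding, so its place among these RNAs rests on the gene list and not on that annotation. The 12-week library was the lowest of the later side for Meg3, Miat and Snhg11, yet stood above all of the earlier side.

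Of 12 nuclear long non-coding RNAs tested, 7 rose, none fell and 5 did not pass, with a median log2 difference of 1.46 beside -0.01 over all genes tested. Leaving out 1 library at a time gave 6 to 8. Their summed level was 14638 to 24165 CPM at 8 to 20 weeks and 4718 to 7205 CPM at 3 to 7 days, with 3441 CPM at 3 weeks and 27827 CPM in the control. The control lay nearer 8 to 20 weeks for all 7 that rose, and the 3-week library nearer 3 to 7 days for 6 of the 7. Over all 453 genes annotated as long non-coding, which leave out Snhg11, 13.02% rose and 5.96% fell.

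**Figure D1:**
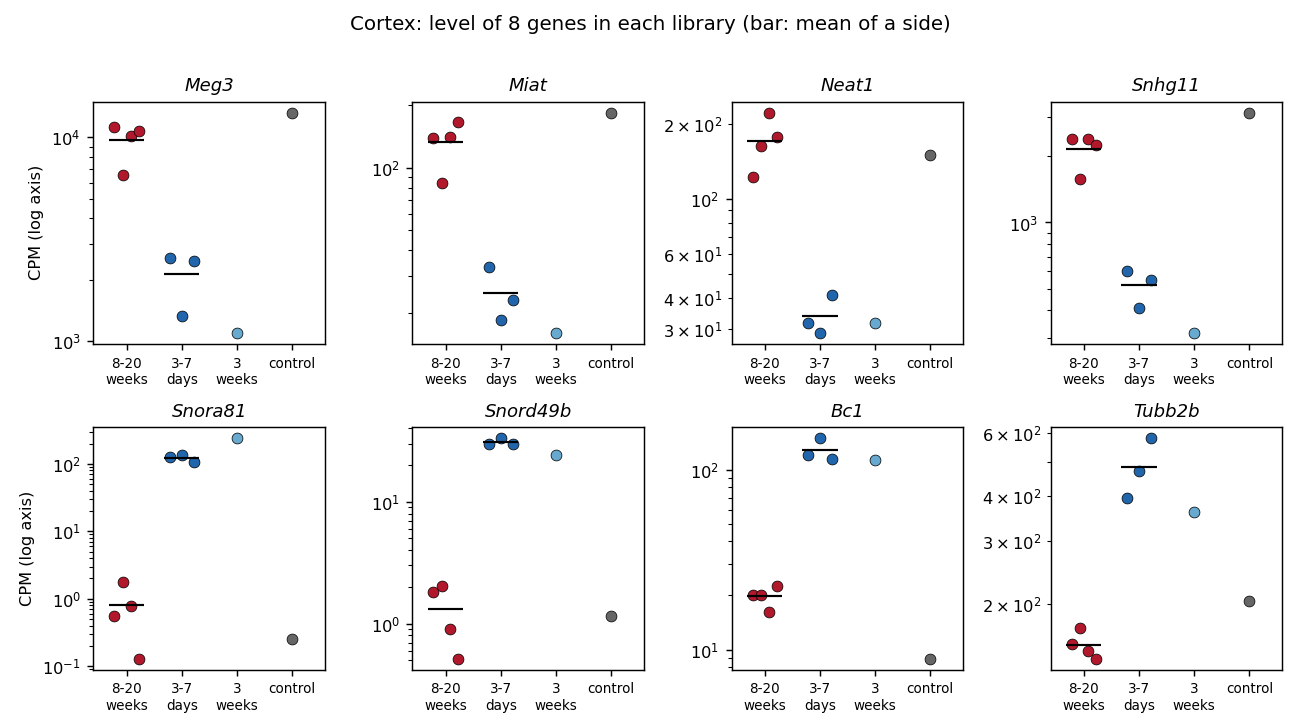
Level of 8 genes in each cortex library in CPM on a log axis, with points for libraries (8 to 20 weeks, then 3 to 7 days, 3 weeks and control) and a bar for the mean of a side. Meg3, Miat, Neat1 and Snhg11 are higher and Snora81, Snord49b, Bc1 and Tubb2b lower at 8 to 20 weeks, with the control on the side of 8 to 20 weeks in each.

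Other large rises came from genes of low or middle level. Erdr1 had 18.9, 42.9, 6.09 and 19.8 CPM at 8 to 20 weeks and 1.19, 1.85 and 5.15 CPM at 3 to 7 days (log2 difference 3.00, SE 0.59, edgeR adjusted p = 0.00347), and its 16-week value nearly met the 7-day one. Adamts10, a protease of microfibrils, had 13.3 to 21.3 CPM at 8 to 20 weeks and 1.32 to 4.64 CPM at 3 to 7 days (2.59, SE 0.34). Ssh3, a phosphatase of the actin regulator cofilin, had 16.3, 11.5, 19.0 and 17.3 CPM at 8 to 20 weeks and 1.43, 2.77 and 4.77 CPM at 3 to 7 days (2.42, SE 0.33). Lrrc45, a centrosome linker protein, and Csf2ra, the receptor chain for the growth factor GM-CSF, rose by 2.19 (SE 0.26) and 2.32 (SE 0.40) on the log2 scale. The rest of the 12 largest rises were E330033B04Rik, Gm5415, 9530091C08Rik and 4930480K15Rik, at 2.29 to 2.92. The sides of all 12 were apart by the naming rule, so this is no result. The control lay within or above the values of 8 to 20 weeks for each. The 3-week library was at or below 7.65 CPM for all but Miat, Neat1 and Meg3.

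Among messenger RNAs the largest falls were in Ccdc36, Pex13, Timm22 and Ppp1r15b. Ccdc36, a meiotic recombination gene also called Iho1 (chr9:108403611-108428484), had 101, 143, 102 and 100.4 CPM at 8, 12, 16 and 20 weeks, against 1130, 1118 and 815 CPM at 3, 5 and 7 days (log2 difference -3.20, SE 0.16, edgeR adjusted p = 5.06e-08). Timm22, a subunit of the mitochondrial inner membrane translocase (chr11:76406952-76416292), had 102, 146, 105 and 109.6 CPM at 8 to 20 weeks and 978, 978 and 723 CPM at 3 to 7 days (-2.95, SE 0.15). Both stood near their earlier values at 3 weeks, with 1092 CPM for Ccdc36 and 982 CPM for Timm22, and near their later ones in the control, with 93.3 CPM for Ccdc36 and 107 CPM for Timm22. Pex13, a peroxisomal import factor, had 33.1, 31.8, 27.6 and 35.3 CPM at 8 to 20 weeks and 272, 315 and 216 CPM at 3 to 7 days (-3.08, SE 0.14), with 216 CPM at 3 weeks and 20.6 CPM in the control. Ppp1r15b, which recruits the phosphatase that reverses the integrated stress response, had 49.8, 65.2, 60.4 and 48.8 CPM at 8 to 20 weeks and 290, 294 and 228 CPM at 3 to 7 days (-2.28, SE 0.13), with 163 CPM at 3 weeks and 44.2 CPM in the control. The other large falls were 2810433D01Rik, Gm12596, 2900060B14Rik and 9830132P13Rik, at -4.46 to -2.57. They are not messenger RNAs by annotation but long non-coding, as Bc1 is, with 2900060B14Rik of the antisense class. Long non-coding RNAs are thus among the largest falls as well as the largest rises. Of these, 2900060B14Rik shares bases with the small RNA Gm22710 and lies opposite Clasp1, and Ccdc36, Pex13 and Ppp1r15b lie opposite other annotated genes, so their counts are uncertain where strand was not used.

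Over all genes, 3093 of 13657 (22.6%) passed an adjusted p of 0.05 by edgeR, 1484 higher (10.9%) and 1609 lower (11.8%) at 8 to 20 weeks. Of these, 681 differed by at least 2-fold, 438 higher and 243 lower, and the median size of the called log2 differences was 0.67. The sides did not overlap in 4398 of all genes tested (32.2%) and in 2881 of the 3093 called. Sides apart are thus the usual case for a called gene. Each list count below is to be read beside the shares of 10.9% higher and 11.8% lower. Scaling by total counts alone moved the split to 2225 higher and 886 lower, with a median over all genes of 0.12 in place of -0.01, so small differences of either sign depend on the scaling. At a fold above 1.5, 214 genes passed. Adding the 3-week library to the later side, as the labels' long-term class has it, left 0 genes by edgeR, with 2921 at an unadjusted p under 0.05. Without the 8-week library 2038 genes passed and without the 16-week library 1955.

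The unexposed control lay with 8 to 20 weeks for most called genes. Its place was measured on the log2 scale as 0 at the mean of 3 to 7 days and 1 at the mean of 8 to 20 weeks. Among the 1484 genes that rose the control's median place was 1.01, and it was nearer 8 to 20 weeks for 1395 of them (94.0%). Among the 1609 genes that fell it was 0.999, and nearer 8 to 20 weeks for 1505 (93.5%). The 3-week library of exposed mice had a median place of 0.09 among genes that rose and -0.02 among genes that fell, nearer 3 to 7 days for 1203 and 1366 genes. Both held together, with the control nearer 8 to 20 weeks and the 3-week library nearer 3 to 7 days, for 1136 genes that rose (76.5%) and 1282 that fell (79.7%). The part of the library set in these differences was not tested.

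**Figure D2:**
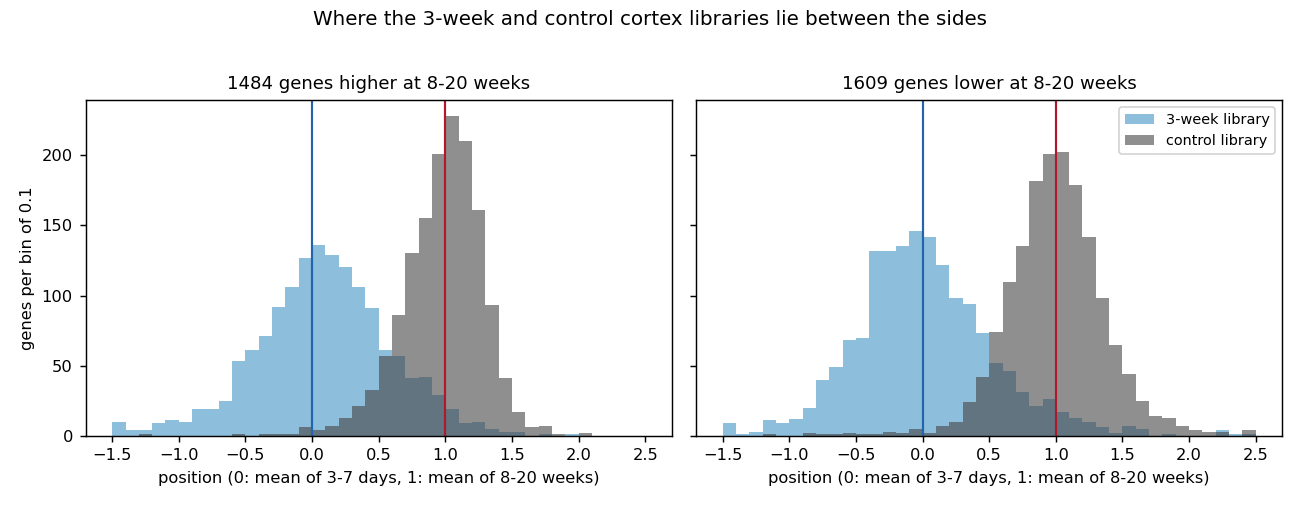
Number of called genes by the place of the 3-week and the control cortex library, where 0 is the mean of 3 to 7 days and 1 the mean of 8 to 20 weeks, for the 1484 higher (left) and 1609 lower genes (right); values beyond the axis are in the end bins. The control centres on 1.01 and 0.999, and the 3-week library on 0.09 and -0.02.

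Most ribosomal protein and oxidative phosphorylation genes fell. Of 77 cytosolic ribosomal protein genes tested, 59 fell, none rose and 18 did not pass, with a median log2 difference of -0.61 (45 to 70 without 1 library). Rpl22, of the large subunit, had 248, 257, 261 and 259 CPM at 8 to 20 weeks, against 404, 493 and 444 CPM at 3 to 7 days (log2 difference -0.81, SE 0.10). Its sides did not overlap, and the 3-week library stood with 3 to 7 days, at 467 CPM. The summed level of the list was 10458 to 11475 CPM at 8 to 20 weeks and 13136 to 17815 CPM at 3 to 7 days, with 20381 CPM at 3 weeks and 9630 CPM in the control, which lay nearer 8 to 20 weeks for all 59. Many ribosomal protein genes have near-identical pseudogenes, so reads of single members could be split or lost.

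Of 76 oxidative phosphorylation genes 54 fell and 1 rose, with a median of -0.54 (44 to 59 fell without 1 library). Ndufa4, a subunit of the respiratory chain, had 76.7, 73.9, 79.9 and 76.9 CPM at 8 to 20 weeks, against 148, 163 and 141 CPM at 3 to 7 days (log2 difference -0.98, SE 0.10, edgeR adjusted p = 0.000108). Uqcr11, of complex III, had 81.9, 72.0, 69.9 and 69.8 CPM at 8 to 20 weeks and 140.3, 172 and 134 CPM at 3 to 7 days (-1.03, SE 0.12). For both, the later libraries were within a narrow band and all were below the earlier ones. Mitochondrial ribosomal proteins were less uniform, with 21 of 77 lower, 1 higher and a median of -0.22. That count was 9 without the 16-week library, 11 without 8 weeks, 12 without 5 days or 20 weeks, and 10 with total counts alone. Mrpl30 had 42.1, 37.6, 40.2 and 38.0 CPM at 8 to 20 weeks and 63.5, 82.1 and 63.5 CPM at 3 to 7 days (-0.83, SE 0.13).

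Protein quality control showed the same direction in fewer members. Of 36 proteasome subunits 15 fell and 1 rose (median -0.31), with 8 lower under total counts alone and 10 without 12 weeks. Psmb3, of the catalytic core ring, had 36.5, 37.9, 40.1 and 38.0 CPM at 8 to 20 weeks and 56.6, 83.9 and 62.5 CPM at 3 to 7 days (log2 difference -0.83, SE 0.14). Of 23 heat shock and chaperone genes 8 fell and 1 rose (median -0.29), with 5 lower without the 8-, 12- or 16-week library and 4 with total counts alone. Hspe1, the mitochondrial co-chaperonin, had 44.5, 49.7, 42.2 and 42.4 CPM at 8 to 20 weeks and 66.0, 92.4 and 83.3 CPM at 3 to 7 days (-0.86, SE 0.13). Of 21 endoplasmic reticulum stress genes 8 fell and 1 rose (median -0.28), with 5 lower without 16 or 20 weeks or with total counts alone. Pdia4, a disulfide isomerase of that compartment, had 23.3, 26.0, 21.3 and 14.2 CPM at 8 to 20 weeks and 72.8, 65.9 and 48.3 CPM at 3 to 7 days, the list's lowest difference at -1.56 (SE 0.19). Hsp90b1, its chaperone GRP94, had 306, 316, 282 and 259 CPM at 8 to 20 weeks and 503, 455 and 542 CPM at 3 to 7 days (-0.79, SE 0.11). The sides were apart in all 4 of these genes, as in most called genes.

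Of 32 splicing factor genes 13 rose and 1 fell, with a median log2 difference of 0.25 (12 to 14 rose without 1 library). Pnisr, an arginine-serine-rich nuclear protein, had 604, 605, 612 and 639 CPM at 8 to 20 weeks, against 168, 114 and 255 CPM at 3 to 7 days (log2 difference 1.77, SE 0.20, edgeR adjusted p = 0.000202). Srrm2, a scaffold of nuclear speckles, had 852, 665, 832 and 824 CPM at 8 to 20 weeks and 372, 299 and 329 CPM at 3 to 7 days (1.24, SE 0.13). Srsf11 had 311, 274, 291 and 304 CPM at 8 to 20 weeks and 152, 119.9 and 163 CPM at 3 to 7 days (1.02, SE 0.12). All of them had a control near the later side, at 595 CPM for Pnisr, 957 CPM for Srrm2 and 306 CPM for Srsf11.

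The annotated span of a gene went with its direction. Of 1345 protein-coding genes shorter than 5 kb, 5.87% rose and 22.9% fell, with a median log2 difference of -0.18. Of 1209 genes of 100 to 200 kb, 15.2% rose and 6.37% fell, with a median of 0.08. Genes above 200 kb had 12.96% higher and 6.37% lower. Hippocampus showed medians of -0.19 below 5 kb and 0.13 at 100 to 200 kb in the same contrast. The part of span in the gene lists was not tested.

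**Figure D3:**
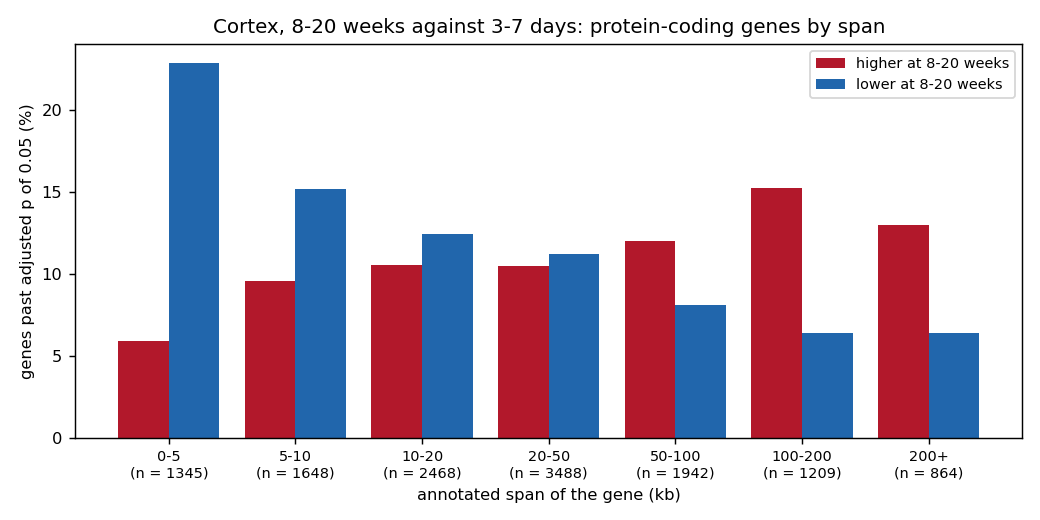
Share of protein-coding genes that were higher and lower at 8 to 20 weeks than at 3 to 7 days, in percent of the genes tested in each class of annotated span in kb (n under each pair of bars). The share lower is 22.9% below 5 kb and 6.37% above 200 kb.

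Ion channel and vesicle genes of neurons were more often higher than lower. Of 28 sodium, calcium and related channel genes 12 rose and 1 fell (median 0.34), with 8 higher without the 7-day or the 8-week library. Cacng2, the AMPA receptor subunit stargazin, had 444, 430.0, 419 and 489 CPM at 8, 12, 16 and 20 weeks, against 116, 77.1 and 227 CPM at 3, 5 and 7 days, with 142 CPM at 3 weeks and 323 CPM in the control (log2 difference 1.66, SE 0.26, edgeR adjusted p = 0.00105). Hcn2, a pacemaker channel, had 179, 157, 145 and 159 CPM at 8 to 20 weeks and 81.5, 82.0 and 70.7 CPM at 3 to 7 days (1.03, SE 0.12). For Hcn2 the 3-week library had 109.5 CPM and the control 101 CPM, between the sides. Of 30 potassium channel genes 8 rose and none fell (median 0.31), but 3 rose without the 8-week or the 12-week library and 4 without 16 weeks. Kcnt1, a sodium-activated channel, had 36.8, 36.5, 38.8 and 41.1 CPM at 8 to 20 weeks and 16.1, 15.2 and 10.9 CPM at 3 to 7 days (1.43, SE 0.16).

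Of 26 synaptic vesicle genes 8 rose and 1 fell (median 0.16). Unc13a, which primes vesicles for release, had 123, 127, 126 and 127 CPM at 8 to 20 weeks and 73.9, 58.2 and 66.8 CPM at 3 to 7 days (log2 difference 0.91, SE 0.11, edgeR adjusted p = 0.000288). Slc32a1, the vesicular transporter of GABA, had 90.7, 98.3, 107 and 63.1 CPM at 8 to 20 weeks and 17.99, 47.3 and 35.3 CPM at 3 to 7 days (1.42, SE 0.26). The sides were apart in both, as in most called genes. Inhibitory neuron markers were mixed, with 3 of 22 higher, 4 lower and a median of -0.06 that was 0.08 with total counts alone. The 4 became 2 without 3 days or 8, 12 or 16 weeks and with total counts alone, and the 3 became 5 without 5 days. Gad1, which makes GABA, had 173, 199.7, 187 and 171 CPM at 8 to 20 weeks and 115, 129 and 107 CPM at 3 to 7 days (0.63, SE 0.11), and the peptide gene Sst rose by 0.73 (SE 0.14). Cck fell to 526 to 590.4 CPM at 8 to 20 weeks, against 746 to 914 CPM at 3 to 7 days (-0.55, SE 0.11).

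Postsynaptic and dendritic messenger RNAs had 4 of 28 members lower (14.3%, beside 11.8% over all genes tested) and none higher (beside 10.9%). Their median was -0.01 (0.12 with total counts alone). Ddn, the dendritic protein dendrin, had 225, 259, 235 and 209 CPM at 8 to 20 weeks, against 379, 494 and 515 CPM at 3 to 7 days (log2 difference -1.004, SE 0.12, edgeR adjusted p = 0.000288). Its 3-week library, at 254 CPM, lay with 8 to 20 weeks, as did the control at 223 CPM. Dlg4, which encodes the scaffold PSD-95, had 457, 382, 348 and 334 CPM at 8 to 20 weeks and 642, 686 and 560.3 CPM at 3 to 7 days (-0.73, SE 0.13). Cortical layer genes (median 0.14) had 3 of 24 higher and 3 lower, 12.5% each and near the shares over all genes tested. These counts moved to 0 lower without 16 weeks or with total counts alone, and to 6 higher without 3 days or with total counts alone. Tbr1 rose by 0.48 (SE 0.12) on the log2 scale, and Rspo1 by 1.53 (SE 0.32), where the 3-week library had 23.8 CPM, above all 7 libraries compared.

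Genes of immature neurons and development had 7 of 21 members lower and none higher, with a median of -0.16 (6 to 7 lower without 1 library). Tubb2b, a tubulin of growing neurons (chr13:34126748-34130466, minus strand), had 155, 171, 148 and 141 CPM at 8, 12, 16 and 20 weeks, against 396, 470.0 and 580.4 CPM at 3, 5 and 7 days (log2 difference -1.66, SE 0.13, edgeR adjusted p = 8.6e-06). The 3-week library had 361 CPM and the control 204 CPM, above all 4 later libraries. Gap43, a growth cone protein, had 355, 381, 306 and 327 CPM at 8 to 20 weeks and 556, 535 and 707 CPM at 3 to 7 days (-0.82, SE 0.12). Fabp7, the lipid-binding protein of radial glia and astrocytes, had 14.6, 11.3, 13.2 and 19.6 CPM at 8 to 20 weeks and 22.4, 32.6 and 41.0 CPM at 3 to 7 days (-1.13, SE 0.22). Sides did not overlap in any of the 3 genes, as in most called genes. In this list the control lay nearer 3 to 7 days for 3 of the 7 that fell. Dcx, the classical marker of newborn neurons, did not pass, with 43.8, 36.8, 28.1 and 34.5 CPM at 8 to 20 weeks and 27.8, 25.8 and 31.4 CPM at 3 to 7 days.

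**Figure D4:**
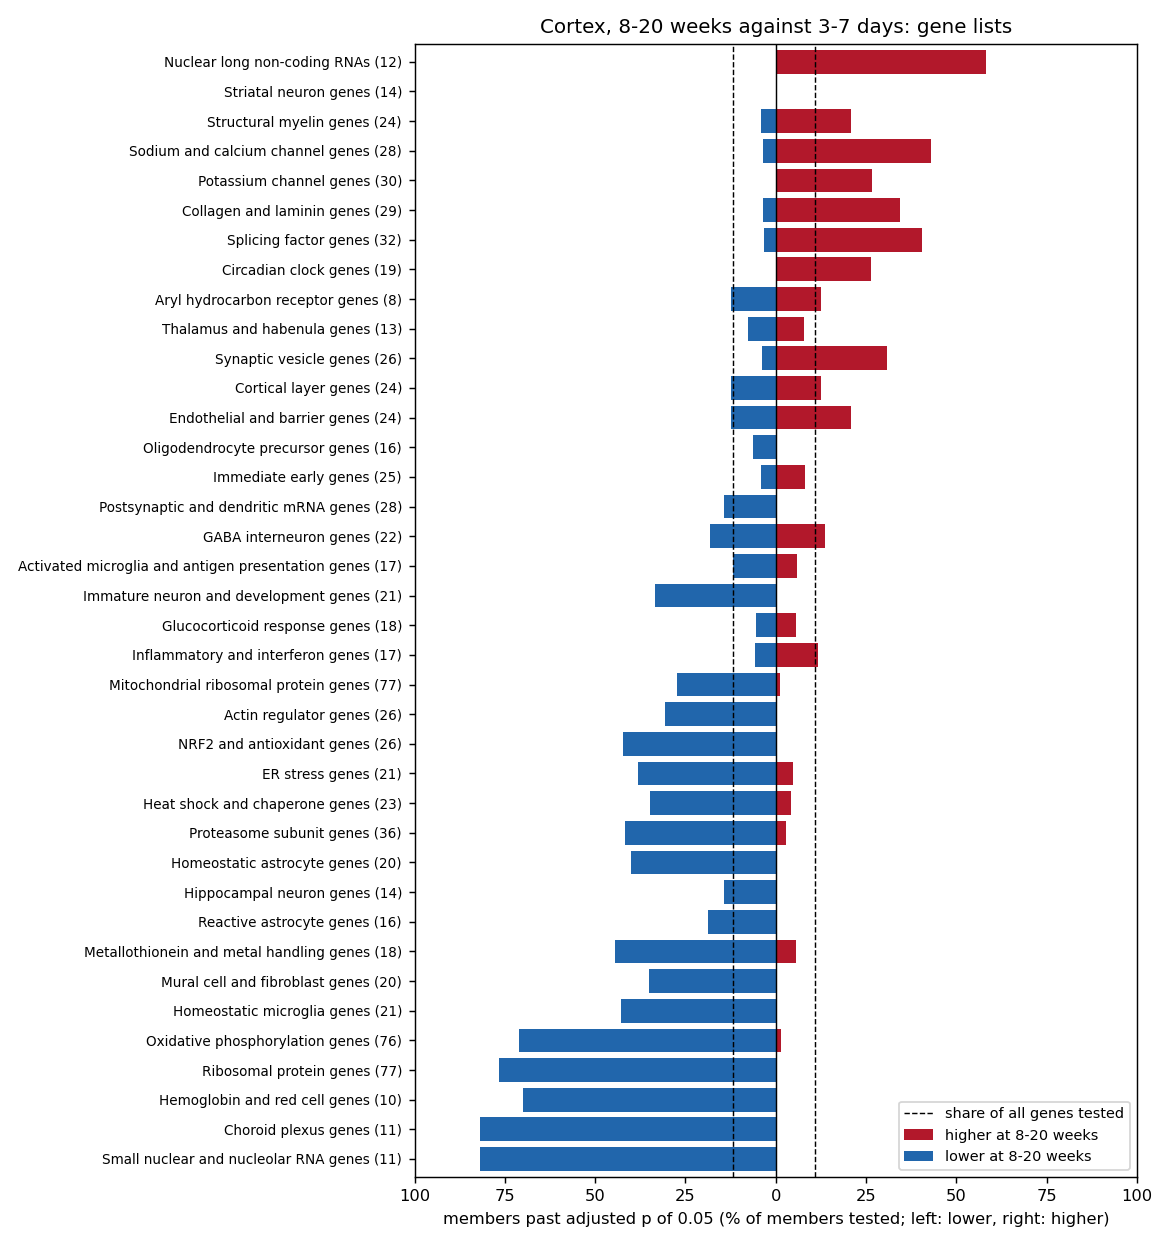
Share of tested members of each gene list that were lower (left) or higher (right) at 8 to 20 weeks than at 3 to 7 days, with the number tested in brackets and dashed lines at the shares over all genes, 11.8% lower and 10.9% higher. Lists run from the highest median log2 difference (nuclear long non-coding RNAs, 1.46) to the lowest (small nuclear and nucleolar RNAs, -3.35).

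Homeostatic markers of microglia and astrocytes were lower at 8 to 20 weeks where they passed. In bulk tissue, fewer cells of a type and less RNA per cell cannot be told apart. Of 21 homeostatic microglia genes 9 fell and none rose (median -0.51), with 7 to 10 lower without 1 library. Tyrobp, the signalling adaptor of microglial receptors, had 4.72, 5.26, 4.40 and 7.86 CPM at 8 to 20 weeks, against 17.5, 21.8 and 15.2 CPM at 3 to 7 days (log2 difference -1.72, SE 0.23, edgeR adjusted p = 0.000452). C1qc, of complement C1q, had 22.1, 21.7, 22.5 and 18.8 CPM at 8 to 20 weeks and 29.3, 58.8 and 45.7 CPM at 3 to 7 days (-1.07, SE 0.20). The control had 7.26 CPM of Tyrobp and 19.5 CPM of C1qc, close to the later libraries. The summed level of the list was 517 to 527 CPM at 8 to 20 weeks, 616 to 810 CPM at 3 to 7 days, 668 CPM at 3 weeks and 525 CPM in the control. Activated microglia and antigen presentation genes had 2 of 17 lower and 1 higher, Ctsz (log2 difference 0.40, SE 0.13), and 0 higher without the 3- or 5-day library or any 1 of the later ones. Apoe fell to 1208 to 1372 CPM at 8 to 20 weeks, against 2076 to 2260 CPM at 3 to 7 days (-0.76, SE 0.10), while Trem2 and Cd68 did not pass.

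Of 20 homeostatic astrocyte genes 8 fell and none rose (median -0.34), with 4 lower without the 5-day or the 20-week library, 5 without 8 or 16 weeks, and 4 with total counts alone. Cst3, a secreted protease inhibitor, had 871, 1005, 952 and 774 CPM at 8 to 20 weeks, against 1392, 2531 and 1683 CPM at 3 to 7 days (log2 difference -1.06, SE 0.17, edgeR adjusted p = 0.00109). S100b had 306, 296, 288 and 245 CPM at 8 to 20 weeks and 447, 568 and 505 CPM at 3 to 7 days (-0.84, SE 0.12). Both were lower in every later library. Reactive astrocyte genes had 3 of 16 lower and none higher, and 1 lower without 7 days or without 8, 12 or 20 weeks. Gfap had 32.5, 40.8, 33.0 and 45.5 CPM at 8 to 20 weeks and 49.2, 41.5 and 93.1 CPM at 3 to 7 days, with overlapping sides (-0.70, SE 0.23, edgeR adjusted p = 0.0445).

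Myelin genes differed by member. Of 24 structural myelin genes 5 rose and 1 fell (median 0.36), with 2 higher without the 7-day or the 8-week library and 3 without 5 days, 12 or 16 weeks, and 8 with total counts alone. No member fell without the 3-day library, without any 1 of the later libraries, by DESeq2 or by limma-voom. The lowest log2 difference of this list, -1.35, is also the highest of the choroid plexus list, whose calls rest on the 3-day library. The named risers were regulators and a channel: Sox10 had 42.1, 41.7, 41.4 and 30.8 CPM at 8 to 20 weeks and 20.5, 12.7 and 23.4 CPM at 3 to 7 days (log2 difference 1.04, SE 0.20, edgeR adjusted p = 0.00303). Myrf, the myelin regulatory factor, had 17.8, 17.1, 16.9 and 12.2 CPM at 8 to 20 weeks and 7.03, 8.72 and 8.50 CPM at 3 to 7 days (0.98, SE 0.20). Mbp, the myelin protein itself, did not pass, with 2083, 1610.1, 1592 and 1078 CPM at 8 to 20 weeks and 2070.2, 1627 and 1412 CPM at 3 to 7 days. Of 16 oligodendrocyte precursor genes 1 fell, Cspg5, by 0.38 (SE 0.11) on the log2 scale, and 0 fell without 5 days, 8 or 20 weeks or with total counts alone.

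Vessel genes went both ways, with endothelial falls at about the share over all genes. Of 24 endothelial and barrier genes (median 0.12) 5 rose (20.8%) and 3 fell (12.5%), beside 10.9% and 11.8% over all genes tested. Without the 12- or the 20-week library 2 were higher. Flt1, a receptor of VEGF, had 49.2, 51.7, 48.8 and 49.7 CPM at 8 to 20 weeks, against 25.3, 29.8 and 28.6 CPM at 3 to 7 days (log2 difference 0.83, SE 0.12, edgeR adjusted p = 0.000712). Slc2a1, the glucose transporter of the barrier, had 52.1, 49.1, 43.6 and 52.3 CPM at 8 to 20 weeks and 32.6, 35.0 and 29.4 CPM at 3 to 7 days (0.60, SE 0.13). Itm2a fell to 15.1 to 18.8 CPM at 8 to 20 weeks, against 27.0 to 41.0 CPM at 3 to 7 days (-1.02, SE 0.16). Of 20 mural cell and fibroblast genes 7 fell and none rose (median -0.45). Collagen and laminin genes had 10 of 29 higher and 1 lower (median 0.28), with 6 higher without the 5-day, 8-, 16- or 20-week library. Col6a1 had 14.2, 14.9, 19.5 and 21.5 CPM at 8 to 20 weeks and 5.36, 3.70 and 3.74 CPM at 3 to 7 days (2.02, SE 0.24), whereas Col3a1, a fibroblast collagen of low level, had 2.92, 1.31, 1.13 and 1.03 CPM at 8 to 20 weeks and 4.89, 4.36 and 10.8 CPM at 3 to 7 days (-2.08, SE 0.46).

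Red cell genes were lower at 8 to 20 weeks where they passed, and the choroid plexus calls rested on single libraries. Of 10 hemoglobin and red cell genes 7 fell and none rose (median -1.11; 5 fell without the 5-day library and 7 without any other), and the summed level was 1091 to 1716 CPM at 8 to 20 weeks and 1823 to 4232 CPM at 3 to 7 days, the highest at 5 days. Hbb-bt had 51.6, 89.3, 55.5 and 67.3 CPM at 8 to 20 weeks and 118, 214 and 93.6 CPM at 3 to 7 days (log2 difference -1.12, SE 0.24, edgeR adjusted p = 0.00621). Its near-identical partner Hbb-bs can take the same reads, as Hba-a1 can for Hba-a2. Of 18 choroid plexus genes 11 were tested and 9 fell (median -2.27), but 0 fell without the 3-day library, 14 without 5 days, 2 to 4 without any 1 later library, and 1 by limma-voom. The list's summed level was 303, 476, 324 and 270.0 CPM at 8, 12, 16 and 20 weeks and 5718, 294 and 902 CPM at 3, 5 and 7 days, with 2736 CPM at 3 weeks and 1707 CPM in the control. The 5-day library lay within the later ones, and the 9 calls rest on the 3-day library. Striatal genes had none of 14 past the threshold, with summed levels of 336 to 1595 CPM at 8 to 20 weeks and 336 to 1968 CPM at 3 to 7 days, and 13 were higher without the 5-day library. Thalamus and habenula genes had 1 of 13 higher and 1 lower, and hippocampal neuron genes 2 of 14 lower, or 0 without the 3-day library. The part of these tissues in other differences was not tested.

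Among programs known to answer particles, antioxidant genes were lower where they passed. Of 26 NRF2 and antioxidant genes 11 fell and none rose (median -0.26), with 9 to 13 lower without 1 library, and the control lay nearer 8 to 20 weeks for all 11. Prdx1, a peroxidase, had 88.3 to 105 CPM at 8 to 20 weeks, against 167, 238 and 151 CPM at 3, 5 and 7 days, with 215 CPM at 3 weeks and 107 CPM in the control (log2 difference -0.92, SE 0.14, edgeR adjusted p = 0.000945). Gstm1, a glutathione transferase, had 81.7, 92.2, 99.0 and 82.8 CPM at 8 to 20 weeks and 138, 181 and 152 CPM at 3 to 7 days, with 125 CPM at 3 weeks and 101 CPM in the control (-0.83, SE 0.12). Neither gene's sides overlapped, as in most called genes. The NRF2 targets Hmox1 and Nqo1 were low, and did not pass. Hmox1 had 0.695, 2.39, 1.01 and 1.55 CPM at 8 to 20 weeks and 1.55, 1.72 and 1.16 CPM at 3 to 7 days, and Nqo1 had 1.25, 1.79, 1.69 and 1.16 CPM at 8 to 20 weeks and 3.46, 1.98 and 2.83 CPM at 3 to 7 days (edgeR adjusted p = 0.945 for Hmox1 and 0.147 for Nqo1).

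Metal-handling genes had 8 of 18 lower and 1 higher (median -0.41), with 5 lower under total counts alone. Mt2, a metallothionein, had 215, 203, 162 and 147 CPM at 8 to 20 weeks, against 219, 441 and 303 CPM at 3 to 7 days (log2 difference -0.83, SE 0.20, edgeR adjusted p = 0.010), so the 3-day library nearly met the 8-week one. Fth1, the ferritin heavy chain, had 965, 1137, 1112 and 911 CPM at 8 to 20 weeks and 1539.9, 1777 and 1315 CPM at 3 to 7 days (-0.59, SE 0.12). Slc30a3, the zinc transporter of synaptic vesicles, had 88.1, 103, 96.3 and 87.2 CPM at 8 to 20 weeks and 133, 162 and 188 CPM at 3 to 7 days (-0.79, SE 0.13). Its 3-week library, at 97.4 CPM, and its control, at 96.2 CPM, both lay with 8 to 20 weeks. Aryl hydrocarbon receptor genes had 8 of 13 members tested, 1 higher and 1 lower, with 3 higher without the 3-day library. The members used as exposure markers, Cyp1a1 and Cyp1b1, were too low to be tested.

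Inflammatory and interferon genes had 2 of 17 higher (11.8%) and 1 lower (5.88%), beside 10.9% and 11.8% over all genes tested. The 2 became 1 without 3 or 7 days or 8, 12 or 20 weeks. A further 9 were too low to be tested, Il6 and Tnf among them. Cxcl12, a chemokine also made by vessels and neurons, had 67.3, 69.0, 50.9 and 48.8 CPM at 8 to 20 weeks, against 29.9, 35.1 and 29.0 CPM at 3 to 7 days (log2 difference 0.90, SE 0.16, edgeR adjusted p = 0.0016). Il1b had 1.67, 0.478, 0.113 and 0.515 CPM at 8, 12, 16 and 20 weeks and 0.119, 1.58 and 2.70 CPM at 3, 5 and 7 days, and did not pass. Immediate early genes had 2 of 25 higher, 1 lower and a median of -0.01 (0.13 with total counts alone), and 0 higher without 12, 16 or 20 weeks. Arc had 75.0, 89.1, 66.0 and 104 CPM at 8 to 20 weeks and 62.7, 70.7 and 94.7 CPM at 3 to 7 days, and neither it nor Npas4 passed. Clock genes had 5 of 19 higher and none lower (median 0.25), with Per3 at 21.5, 19.1, 22.3 and 27.2 CPM at 8 to 20 weeks and 11.2, 12.1 and 8.50 CPM at 3 to 7 days (1.08, SE 0.19). The hour of sampling is not given in the sources used here. Glucocorticoid response genes had 1 of 18 higher, Plin4, and 1 lower, Mt2, with 5 lower without the 7-day library and 2 without 3 days. Actin regulators had 8 of 26 lower and none higher (median -0.26), with 3 lower under total counts alone and 5 without 8, 12 or 16 weeks. Tmsb4x, which binds actin monomers, had 981, 961, 961 and 832 CPM at 8 to 20 weeks and 1333, 1874 and 2306 CPM at 3 to 7 days (-0.98, SE 0.15).

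A list of 25 genes often measured after particle exposure had 23 members tested, of which 2 rose and 8 fell (median -0.11, or 0.02 with total counts alone), and 3 to 6 fell without 1 library. The lowest log2 difference of this list, -4.62, is also the lowest of the choroid plexus list, whose calls rest on the 3-day library. Vegfa and Cldn5 were the members that rose, and 0 rose without the 5-day, 12-week or 20-week library and 1 without 3 days, 8 or 16 weeks. Vegfa, the vessel growth factor, had 43.8, 51.0, 51.1 and 58.1 CPM at 8 to 20 weeks, against 41.7, 28.8 and 37.5 CPM at 3 to 7 days (log2 difference 0.49, SE 0.15, edgeR adjusted p = 0.0322). App, the amyloid precursor, had 917, 1012, 1036 and 888 CPM at 8 to 20 weeks and 1105, 909 and 811 CPM at 3 to 7 days, and Mapt, which encodes tau, had 656, 707, 719 and 745 CPM at 8 to 20 weeks and 679.6, 549 and 647 CPM at 3 to 7 days. Neither passed, and their sides overlapped. Bdnf had 105, 98.5, 86.7 and 119.7 CPM at 8 to 20 weeks and 122, 79.2 and 124 CPM at 3 to 7 days and did not pass either.

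For a small group of genes the control reached the values of 3 to 7 days. Of 2426 called genes with a mean of at least 10 CPM and sides apart, the control was at or beyond the nearest value of 8 to 20 weeks in 1908 and at or beyond the nearest value of 3 to 7 days in 65, of which 37 rose and 28 fell. Reaching 1 library of 3 to 7 days was enough for this. In some of the 65 the control was still nearer the mean of 8 to 20 weeks, as in Nhp2l1 (place 0.73) and Kcnv1 (place 0.69). For Pura it was about midway (place 0.49). The genes of this group that are named here were chosen after their values were seen, and so were taken by the place of 1 library. Pura, a single-stranded DNA and RNA binding protein of neurons, had 621, 609, 569 and 713 CPM at 8, 12, 16 and 20 weeks, against 179.6, 193 and 451 CPM at 3, 5 and 7 days, with 315 CPM at 3 weeks and 392 CPM in the control (log2 difference 1.19, SE 0.26, edgeR adjusted p = 0.00569). Zfhx3, a transcription factor of neurons, had 59.2, 39.1, 44.9 and 34.0 CPM at 8 to 20 weeks and 18.2, 26.8 and 20.6 CPM at 3 to 7 days, with 17.2 CPM at 3 weeks and 24.1 CPM in the control (1.01, SE 0.20). Atn1, the gene of atrophin, a transcriptional corepressor, had 62.1, 75.1, 63.7 and 107 CPM at 8 to 20 weeks and 40.6, 29.4 and 51.0 CPM at 3 to 7 days, with 39.7 CPM at 3 weeks and 41.2 CPM in the control (0.92, SE 0.21). The rule that chose the 65 places the later libraries of Pura, Zfhx3 and Atn1 above 3 to 7 days and the control, so that is no result. Only the 3-week value was free, and in these genes it was also below the later libraries.

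Among the 28 that fell, Acta2, the actin of smooth muscle, had 10.7, 14.7, 17.7 and 14.6 CPM at 8 to 20 weeks, against 19.3, 34.9 and 40.1 CPM at 3 to 7 days, with 21.4 CPM at 3 weeks and 30.0 CPM in the control (log2 difference -1.12, SE 0.23, edgeR adjusted p = 0.00455). Marcksl1, a membrane and actin linker of developing neurons, had 22.5, 18.04, 12.5 and 22.5 CPM at 8 to 20 weeks and 41.5, 24.8 and 53.8 CPM at 3 to 7 days, with 30.2 CPM at 3 weeks and 28.5 CPM in the control (-1.10, SE 0.25). Plekhh2 had 9.31, 8.72, 6.65 and 7.34 CPM at 8 to 20 weeks and 17.5, 80.7 and 9.92 CPM at 3 to 7 days, with 68.9 CPM at 3 weeks and 43.5 CPM in the control (-2.18, SE 0.52). Its 7-day value lay just above the later ones, while 5 days, 3 weeks and the control were several times higher. Fcrls, a microglial surface gene, fell by 0.90 (SE 0.24). In 11 of the 65 the 3-week library was also at or beyond the nearest value of 8 to 20 weeks. The 11 were picked by the places of the single control and single 3-week library. Their pattern is therefore the rule that chose them and no result about the length of exposure. Of the 11, 8 rose (Prr7, Ppp1r14a, Gart, Gatm, Cadm4, 2700081O15Rik, Zmat4 and Zfp385b) and 3 fell (Tmem150cos, P4ha1 and Adamts1), with edgeR adjusted p-values of 0.012 to 0.048. The reverse pattern, control at or beyond 8 to 20 weeks and 3 weeks at or beyond 3 to 7 days, held for 1443 of the 2426.

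**Figure D5:**
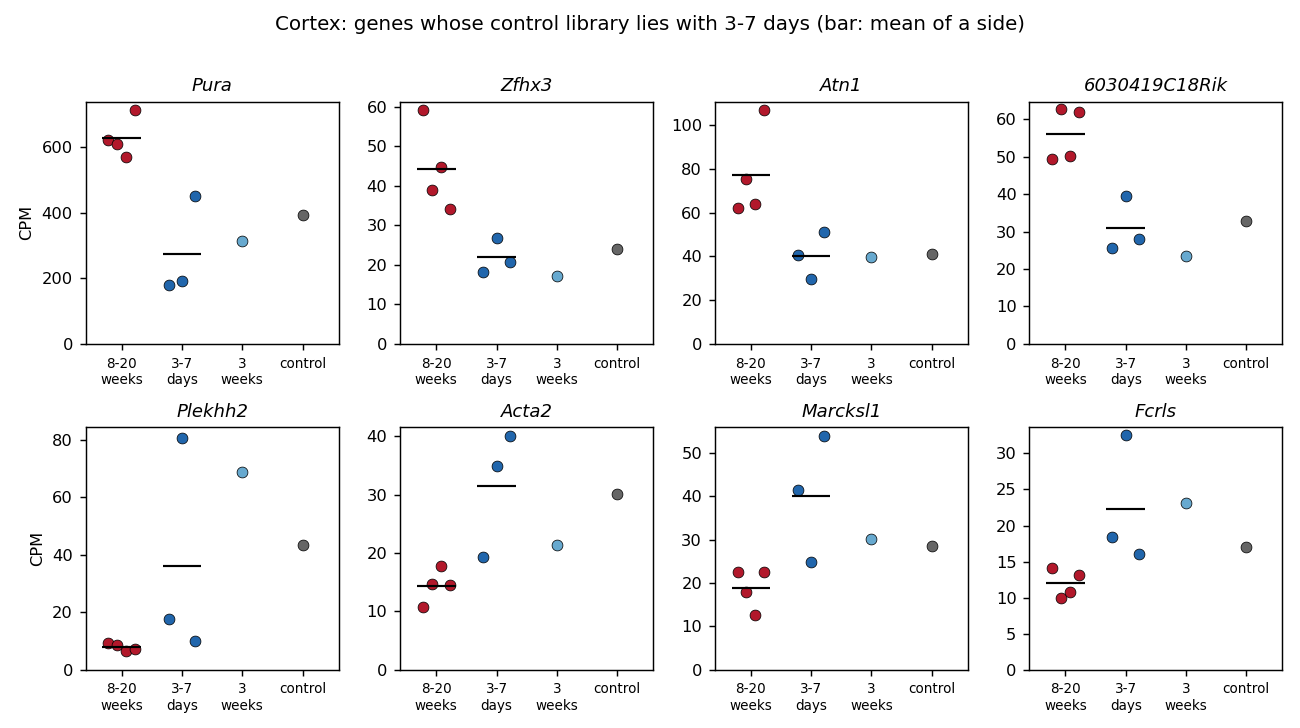
CPM in each cortex library for the 4 largest rises (top) and falls (bottom) among the 65 genes whose control lay at or beyond the nearest value of 3 to 7 days, with a bar for the mean of a side. The 4 libraries of 8 to 20 weeks are above all others in the top row and below them in the bottom row. For all but the 3-week library this was set by the rule that chose the genes.

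Hippocampus libraries of the same times carry the same header styles, and the contrast was set beside that in cortex in 1 fit of 14 libraries. In hippocampus 2974 of 14351 genes passed (20.7%), 10.3% higher and 10.4% lower. Of the 1484 genes that rose in cortex 1352 had a positive difference in hippocampus, and of 1608 measured genes that fell 1450 had a negative one. The median log2 difference of the genes that rose was 0.74 in cortex and 0.54 in hippocampus, and that of the genes that fell was -0.62 in cortex and -0.44 in hippocampus. These genes were chosen for passing in cortex, and that choice alone makes their cortex medians larger. Agreement of sign over all genes tested was not counted. Whether the tissues were taken from the same animals is not given in the sources used here, and if so their libraries are not independent.

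The difference between the tissues itself passed for 4 of 14351 genes (0.0279%) by edgeR, 1 higher (0.00697%) and 3 lower (0.0209%) in cortex than in hippocampus, with 1707 at an unadjusted p under 0.05. Zbtb7a, a transcriptional repressor, had 336, 335, 344 and 333 CPM at 8 to 20 weeks and 231, 208 and 198 CPM at 3 to 7 days in cortex. In hippocampus it had 226, 204, 259 and 199 CPM at 8 to 20 weeks and 255, 276 and 246 CPM at 3 to 7 days. The later libraries were thus higher in cortex and mostly lower in hippocampus (cortex minus hippocampus 0.89, SE 0.14, edgeR adjusted p = 0.0362). Rnase4, a secreted ribonuclease, had 14.2, 14.3, 15.2 and 12.9 CPM at 8 to 20 weeks and 20.5, 21.3 and 25.8 CPM at 3 to 7 days in cortex, against 23.7, 24.8, 26.2 and 20.7 CPM at 8 to 20 weeks and 13.6, 14.5 and 12.5 CPM at 3 to 7 days in hippocampus (-1.48, SE 0.21, edgeR adjusted p = 0.0307). Its sides did not overlap in either tissue and went in opposite directions. Pdgfc, a growth factor, also passed and is named outside the naming rule because it is below its level of 10 CPM. Pdgfc had 3.34, 3.94, 3.83 and 3.99 CPM at 8 to 20 weeks and 5.72, 6.21 and 5.41 CPM at 3 to 7 days in cortex, against 4.83, 4.32, 5.79 and 5.42 CPM at 8 to 20 weeks and 1.10, 0.188 and 1.04 CPM at 3 to 7 days in hippocampus. Among the 4 genes, 0 passed without any 1 of the 4 cortex libraries of 8 to 20 weeks. Acta2 and Col3a1, lower in cortex, had positive differences in hippocampus (0.81 and 1.72), but the difference between tissues did not pass for either.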

How the data were processed

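The files hold whole-number counts of reads for each gene symbol, 1 deposited table per library, without normalization. The submitters' processing notes name Bowtie2, bedtools, edgeR and the mouse build mm10. What each tool did, its version, the gene annotation, whether strand was used and how reads with more than 1 hit were counted are not given in the sources used here. The libraries were made with an oligo-dT primed 3′ kit and read as single ends of 75 bases, per the labels' protocols. Each table has 23282 lines and 23238 different symbols. Lines of 1 symbol were added up, and 27 symbols that had become dates in 2 tables were put back by the order of the other tables. Total counts of the cortex libraries were 7.31 to 8.97 M, so 3 counts, the floor used, equal 0.335 to 0.410 CPM. Floors cover counting error only.

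The 4 libraries of 8 to 20 weeks were tested against the 3 of 3 to 7 days by edgeR 4.0.16 (R 4.3.3; quasi-likelihood F test), with TMM scaling, filterByExpr and Benjamini-Hochberg adjustment over all genes tested, at a threshold of 0.05. The difference between tissues was the interaction in a fit of 14 libraries. Printed CPM are TMM-scaled over all 18 libraries. Places between the sides used log2 CPM with a prior count of 2. Text names the 12 largest changes in each direction of genes with a mean of at least 10 CPM and sides apart, the 3 list members with the smallest p, a list of key genes, and the 3 genes per direction with the smallest p for the interaction. Members and the 39 lists were chosen with earlier results of these data known. Positions are from GENCODE M21, which has 22856 of the symbols. Alternatives were DESeq2 1.42.0, limma-voom (limma 3.58.1), RLE or total-count scaling, library sizes without Rn45s, no filter, a mean of 50 counts, a fold above 1.5, single libraries left out, the 3-week library on the later side, and 1 fit of all 18 libraries. The scripts were tested on simulated data. Values of some genes that met the naming rule or a test are not reported here.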

Additional observations from a re-analysis of the deposited data

Results flagged for a closer look

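In 13 of 194 groups of 4 libraries of 8 to 20 weeks (155 named genes and list sums), 1 library stood apart from the other 3 by more than Dixon's critical ratio of 0.829. Chance gives about 1 in 20 such groups. The 12-week library stood apart for Ccdc36 (143 CPM), Timm22 (146 CPM), Ttr (162 CPM) and Sostdc1 (3.22 CPM), where it was the highest, and for Srrm2 (665 CPM) and Cspg4 (8.48 CPM), where it was the lowest. At 20 weeks Dusp6 was the highest (127 CPM), and Sox10 (30.8 CPM), Myrf (12.2 CPM) and Tmsb4x (832 CPM) were the lowest. The 8-week library was the highest for Ndufa2 (207 CPM), Lef1 (13.8 CPM) and Col3a1 (2.92 CPM). For all of these genes but Ttr, Sostdc1 and Cspg4, the libraries of 8 to 20 weeks did not overlap those of 3 to 7 days.

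The log2 difference of 8 to 20 weeks over 3 to 7 days was itself different in cortex and hippocampus by the interaction test of edgeR for Zbtb7a (0.89, higher in cortex), Rnase4 (-1.48) and Pdgfc (-3.27).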

How the results depend on the processing

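Of 3093 genes called in cortex, DESeq2 called 3368 (3075 shared), limma-voom 3056 (2935 shared), RLE scaling 3089, total counts alone 3111 (2370 shared), sizes without Rn45s 3094, no filter 3159, a mean of 50 counts 2950, and 1 fit of all libraries 2620. A fold above 1.5 left 214, and the 3-week library on the later side left 0. Leaving out 1 library gave 1955 to 3380, with 1955 without 16 weeks and 2038 without 8 weeks. No named gene reversed under these settings. Of 155 named genes, 130 had passed in the main fit and 25 had not. All 130 lost the threshold with 3 weeks added. Of the 130, 87 lost it under a fold above 1.5, 9 with total counts alone, and 9 to 15 without 1 library. For the difference between tissues, 4 genes became 204 by DESeq2, 2 by limma-voom, 15 with no filter, 1 with a mean of 50 counts and 0 under a fold above 1.5, and 0 to 8 without 1 cortex library. No paired analysis was possible because the sides share no exposure time and the labels give no replicate numbers. Most small RNAs, Cyp1a1 and Il6 had too few counts to be tested.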
